A study of Mus musculus with 16 samples.

Results

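S100a8 and S100a9 encode the subunits of calprotectin, and the liver data on these 2 genes, of 15544 genes with a row in the table, are described here across 16 female mice. The genes were chosen by their readout on chow: every mutant on chow lay above every control on chow for both genes. Values from that comparison are therefore given as a description without a test. All mice were 27 weeks old and carried floxed Esr1, the gene for oestrogen receptor alpha (ERα), on a mixed CD-1;129P2 background. Controls were Esr1fl/fl. Mutants were Esr1Nkx2-1Cre, in which Cre driven by Nkx2-1 removes ERα from the ventral hypothalamus. Nkx2-1 is also active in thyroid and lung. Each genotype was kept on chow or given high-fat diet (HFD) for 17 weeks, which gave 4 groups of 4 libraries, each library from bulk liver RNA.

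Calprotectin is a heterodimer of small EF-hand proteins that bind calcium and, in the dimer, zinc and manganese. It is among the most abundant proteins of the neutrophil cytosol and is also made by monocytes, and outside the cell it limits metals to microbes and acts on Toll-like receptor 4 and the receptor for advanced glycation end products. In resting liver the parenchyma makes little of it, and most comes from myeloid cells in the sinusoids. Neutrophil granule proteins, among them myeloperoxidase (Mpo), neutrophil elastase (Elane), lactoferrin (Ltf), cathelicidin (Camp) and neutrophilic granule protein (Ngp), are transcribed mainly by developing neutrophils in bone marrow. S100a8 and S100a9 transcripts persist into the mature cell.

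The genes are neighbours on chromosome 3 in GENCODE M21 on GRCm38. S100a8 (ENSMUSG00000056054) lies on the plus strand from 90668978 to 90670035, and S100a9 (ENSMUSG00000056071) lies on the minus strand from 90692632 to 90695721. They are 22596 bases apart with 0 annotated S100a genes between them. The promoters are shown because the 2 genes move together in these livers. RefSeq promoter sequence on GRCm38.p6, 250 bases up to the annotated start and written 5′ to 3′ on the strand of the gene, spans chr3:90668821-90669070 for S100a8 and chr3:90695722-90695971 for S100a9. GENCODE also lists an S100a8 transcript that starts inside the first window. Capitals mark matches to the motifs described in the next paragraph.
S100a8: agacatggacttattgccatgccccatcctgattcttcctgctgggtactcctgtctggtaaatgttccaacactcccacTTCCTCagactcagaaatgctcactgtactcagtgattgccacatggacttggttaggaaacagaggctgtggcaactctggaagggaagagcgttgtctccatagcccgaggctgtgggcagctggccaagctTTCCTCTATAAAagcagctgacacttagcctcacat
S100a9: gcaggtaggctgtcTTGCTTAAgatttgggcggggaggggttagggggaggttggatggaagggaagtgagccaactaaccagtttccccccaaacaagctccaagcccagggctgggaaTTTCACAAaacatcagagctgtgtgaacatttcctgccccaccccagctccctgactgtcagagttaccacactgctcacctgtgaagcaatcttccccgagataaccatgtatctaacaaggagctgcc

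Motifs were searched on both strands over 300 bases, the printed stretch and the 50 bases after the start. In S100a8, the PU.1 core GAGGAA, whose reverse complement is TTCCTC, matched from -170 to -165 and from -36 to -31 relative to the start, and TATAAA matched from -30 to -25. In S100a9, the C/EBP pattern TTNNNCAA matched from -236 to -229 and from -130 to -123, and the first of these also matched TTGCNNAA. TATAAA in S100a9 fell at bases 1 to 6 after the RefSeq start and is outside the printed stretch. Neither gene matched the STAT pattern TTCNNNGAA or the AP-1 pattern TGANTCA in this window. Of 32851 RefSeq promoters of the same length, 28.3% held the PU.1 core, 13.6% TATAAA, 36.7% TTNNNCAA, 10.8% TTGCNNAA, 8.30% the STAT pattern and 7.81% the AP-1 pattern, so each match is common and describes only these letters.

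Values are normalised on the TPM scale, a share of the library per transcript length, and the sequencing depth behind them is unknown. Mutant_Chow replicates 1 and 2 stand apart from all other libraries in both genes and in neutrophil genes. Their labels give no reason, and results that rest on them are given with and without them. The labelled tissue was checked against 10 hepatocyte markers, of which 9 had a row, and their summed value was between 74041 and 115036 in all libraries. Albumin (Alb) alone was between 36044 and 79775. Column totals were between 905897 and 1119703, and between 11834 and 12443 genes reached a value of 1.

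S100a8 was low in chow controls, at 1.95, 1.82, 0.726 and 2.05 in replicates 1 to 4. In chow mutants it was 1079, 2693, 8.22 and 34.1. The lowest mutant was above the highest control, which is how the gene was chosen, and the mutants themselves spanned more than 2 orders of magnitude. S100a9 was 2.03, 2.71, 1.04 and 5.75 in chow controls and 1339, 2639.9, 12.8 and 49.6 in chow mutants. The order of the 4 mutants was the same for both genes. In bulk liver, fewer cells of a type and less RNA per cell cannot be told apart.

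**Figure D1:**
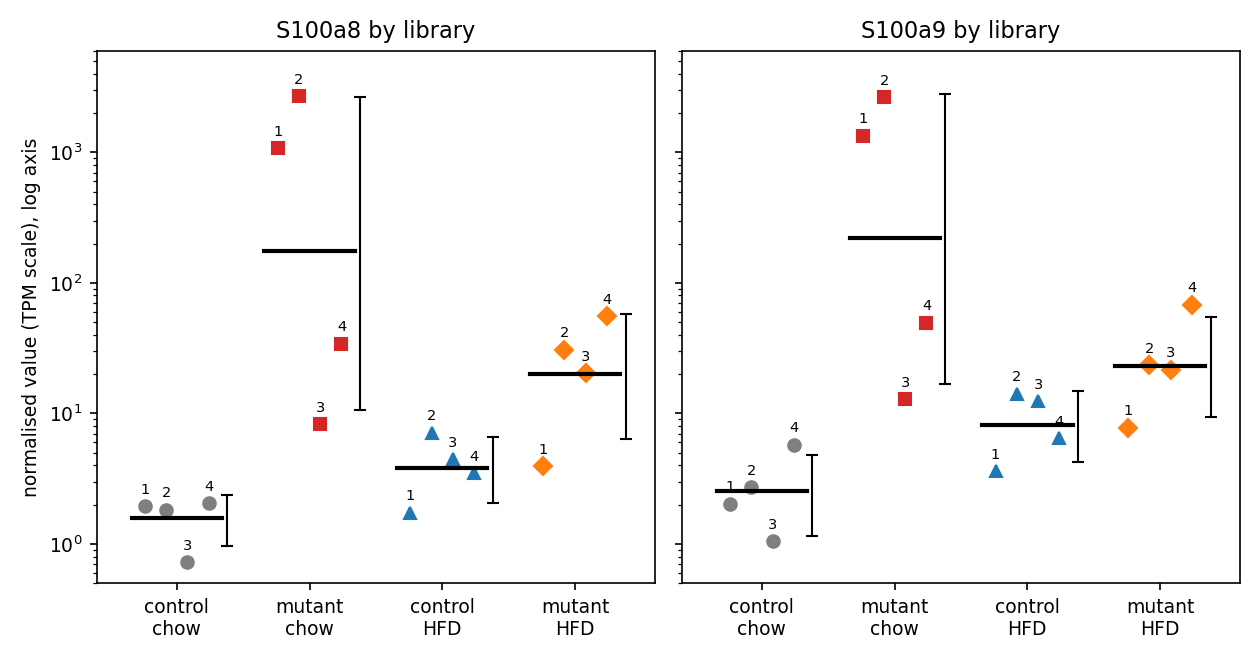
Normalised values of S100a8 (left) and S100a9 (right) in the 16 libraries on a log axis, with replicate numbers above the points. Horizontal lines are group means taken on log2(value + 1) and converted back, and vertical bars show 1 SD on that scale (n = 4). Mutant_Chow replicates 1 and 2 lie above all other libraries for both genes, and the other chow mutants, at 8.22 and 34.1 for S100a8, lie in the range of the HFD mutants.

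In HFD controls, S100a8 was 1.73, 7.12, 4.46 and 3.48, and in HFD mutants it was 3.95, 30.8, 20.3 and 55.5. S100a9 was 3.60, 14.1, 12.4 and 6.44 in HFD controls and 7.77, 23.3, 21.6 and 68.1 in HFD mutants. For both genes 3 of 4 HFD mutants lay above every HFD control, and replicate 1 lay among the controls. The means (SD, n = 4) of S100a8 were 1.64 ± 0.616 in chow controls, 4.20 ± 2.25 in HFD controls, 27.6 ± 21.6 in HFD mutants and 953.6 ± 1262 in chow mutants. The SD of the last group exceeded its mean. The means of S100a9 followed the same order, at 2.88 ± 2.03, 9.13 ± 4.94, 30.2 ± 26.2 and 1010.45 ± 1249. Neighbouring groups in this order overlapped for both genes, and only the first and the last group were chosen to be apart.

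Ranked by value among all genes of a library, S100a8 was at place 57 in Mutant_Chow replicate 2 and 96 in replicate 1, and S100a9 at places 59 and 79. In chow controls the places were between 8234 and 12669. The genes thus went from the low-abundance range to the level of common liver transcripts in 2 of 4 chow mutants.

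The genotype difference on chow on the log2(value + 1) scale, mutant minus control, was 6.09 ± 1.33 (SE) for S100a8 and 5.98 ± 1.25 for S100a9. Both genes passed the filter on low values, and these estimates placed them at ranks 2 and 3 among 12704 genes tested. Of those genes, 248 (1.95%) had every mutant above every control on chow and 139 (1.09%) every mutant below. Adjusted p-values from limma passed the threshold of 0.05 for 3 genes (0.0236%) on chow. S100a8 and S100a9 were selected on this contrast, so nothing is read from their place in it. Without Mutant_Chow replicates 1 and 2 the estimates were 2.81 for S100a8 and 2.91 for S100a9. With 2 mutants left, 878 genes (6.91%) had every mutant above every control.

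The HFD libraries were not used to choose the genes, and their genotype difference was tested. It was 2.11 ± 1.33 (SE; 95% interval -0.72 to 4.95) for S100a8, with an adjusted p of 0.626 by limma. For S100a9 it was 1.40 ± 1.25 (95% interval -1.27 to 4.06), with an adjusted p of 0.704 by limma. In exact two-sided permutation tests of 4 against 4 the p-values were 0.0857 for S100a8 and 0.114 for S100a9, where 0.0286 is the smallest such a test can give. Of the 16 pairs of 1 mutant and 1 control, the mutant was higher in 14 for each gene. Neither gene passed either test, and both intervals include 0.

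Across all genes, 2 (0.0157%) passed the limma threshold on HFD, 176 (1.39%) had every mutant above every control and 166 (1.31%) every mutant below. By the size of the HFD difference S100a8 was at rank 28 and S100a9 at rank 67 of 12704. The standard error on HFD was set in part by the spread of the chow mutants, because all groups share an estimate of the spread. Fitted on the 8 HFD libraries alone, the S100a8 difference of 2.11 had an SE of 0.664 and an interval of 0.62 to 3.61, and the S100a9 difference of 1.40 had an SE of 0.591 and an interval of 0.07 to 2.73. The limma adjusted p of each gene was then 0.708.

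**Figure D2:**
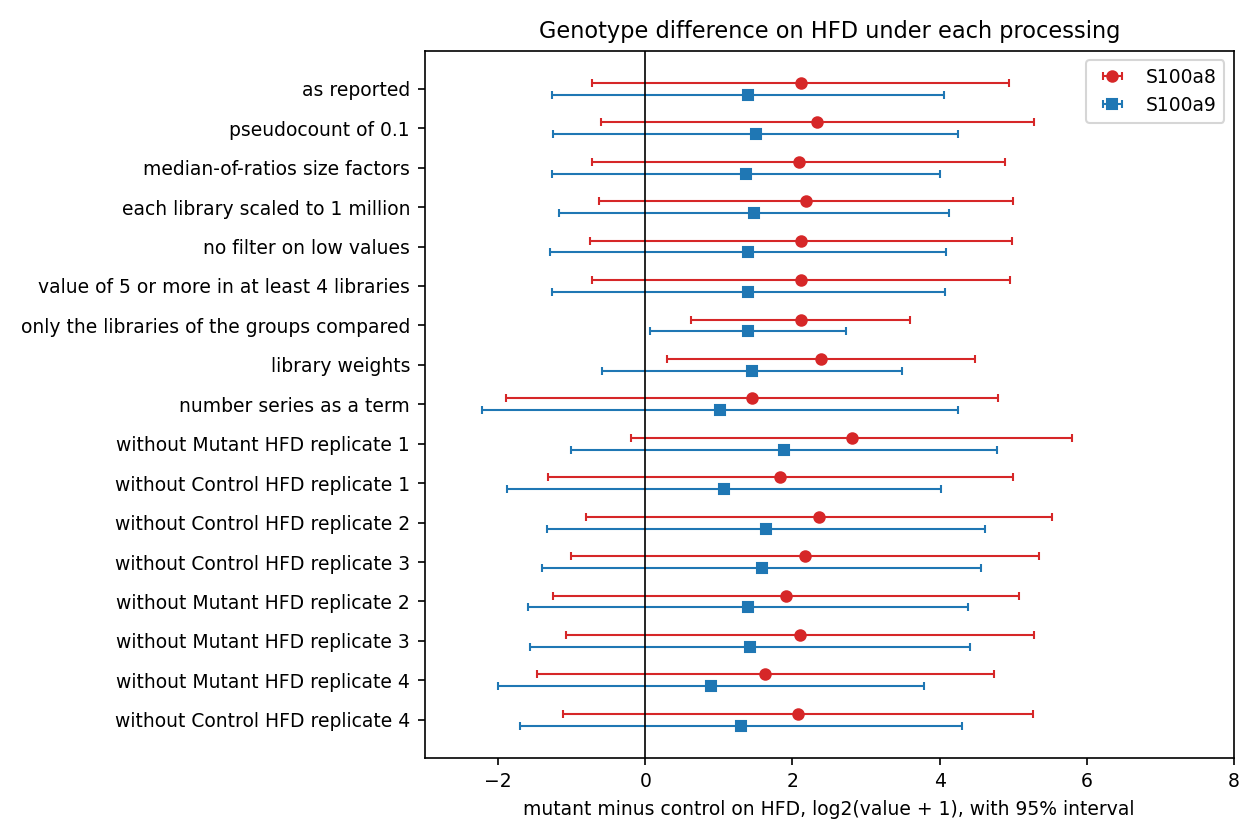
Difference between HFD mutants and HFD controls for S100a8 (circles) and S100a9 (squares), on log2(value + 1) with 95% intervals from limma, as reported and under each alternative processing. Every estimate lies above 0, between 1.46 and 2.80 for S100a8 and between 0.89 and 1.88 for S100a9, and the intervals include 0 except for both genes with only the HFD libraries and S100a8 with library weights.

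Library titles carry numbers that form 4 series without a stated meaning, and no series spans both diets. In the higher-numbered HFD series S100a8 was 30.8, 20.3 and 55.5 in 3 mutants and 3.48 in the only control. In the lower-numbered HFD series the only mutant, at 3.95, lay within the 3 controls, which ran from 1.73 to 7.12. The genotype difference was thus seen in 1 of 2 HFD series. With series as a term, the HFD difference was 1.46 ± 1.55 for S100a8 and 1.01 ± 1.50 for S100a9 (SE), with limma adjusted p-values of 0.9996 for both. On chow the rule itself places every mutant above every control in any series.

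The diet contrasts contain chow libraries used in the choice, and are given without a test. In controls the log2 difference, HFD minus chow, was 0.91 ± 1.33 for S100a8 and 1.37 ± 1.25 for S100a9 (SE). In mutants it was -3.07 and -3.21. Without Mutant_Chow replicates 1 and 2 the estimates in mutants were 0.21 and -0.14, so the lower mean of HFD mutants came from the comparison with those 2 libraries.

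The 2 genes followed each other closely. Over 16 libraries, log2(value + 1) of S100a8 and S100a9 correlated with a Pearson r of 0.990 and a Spearman rho of 0.985, and deviations from the group means with an r of 0.983. Over the 14 libraries without Mutant_Chow replicates 1 and 2 these were 0.959, 0.978 and 0.918. Over the 8 HFD libraries the rank order was identical (rho 1). The libraries share normalisation and tissue, and the coefficients are descriptive. The ratio of S100a9 to S100a8 was between 0.758 and 2.80, with medians of 1.46 in chow controls, 1.35 in chow mutants, 2.03 in HFD controls and 1.15 in HFD mutants. A change of S100a8 over more than 3 orders of magnitude was thus matched by a change of under 4 times in the ratio of the subunits.

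The genes most like the mean log2 value of S100a8 and S100a9 over 16 libraries were Chil3 (r = 0.972), Ngp (0.970), Mpo (0.969), Camp (0.969), Ltf (0.965), Elane (0.961), Retnlg (0.954), Ifitm6 (0.935), Anxa1 (0.934) and Emilin2 (0.931). Most of these are granule or secreted genes of myeloid cells. Of the 10 genes most alike in deviations from the group means, 8 were also in this list, and Mmp9 (0.947) and S100a6 (0.931) were not. Without Mutant_Chow replicates 1 and 2, 6 of the 10 were still among the first 10, led by Mpo (0.892), Chil3 (0.880), Ngp (0.862) and Camp (0.861). Over the 8 HFD libraries only Ngp (0.942) was shared, and the highest were Atp6v0a1, a proton pump subunit (0.972), and Ppbp, a platelet chemokine (0.961). Each of these correlations has few points, and no function is read from it.

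Ngp was 0.674, 0.257, 0.0527 and 0.793 in chow controls and 226, 494, 0.995 and 13.8 in chow mutants. On HFD it was 0, 0.0700, 0.0668 and 0.130 in controls and 0.149, 3.59, 3.29 and 12.3 in mutants. The libraries high in Ngp were those high in S100a8, including HFD mutants 2 to 4. Mpo was 80.6, 143, 0.469 and 3.34 in chow mutants and 0.200, 2.61, 1.41 and 3.57 in HFD mutants, against at most 0.640 in the 8 controls. Mpo did not separate Mutant_Chow replicate 3 (0.469) from the highest control on chow (0.640). S100a8 separated them by the rule that chose it, so the genes cannot be compared on this point.

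The ratio of S100a8 to Mpo was between 10.2 and 19.7 in the 8 mutant libraries, over which S100a8 itself ran from 3.95 to 2693. In the 8 controls, where Mpo was at most 0.640, the ratio was between 3.21 and 25.1. The ratio of S100a8 to Ngp was less even, between 2.47 and 26.5 in mutants. S100a8 relative to Clec4f, a Kupffer cell lectin, ran from 0.0313 to 15.95 in mutants. S100a8 relative to Saa1 ran from 0.0128 to 2.81 in mutants. Among these 4 ratios that to Mpo had the narrowest range in mutants. In controls it did not, where S100a8 relative to Clec4f ran from 0.00815 to 0.0390. Mpo and Ngp were among the 10 genes most like S100a8 and S100a9 over the same 16 libraries, so these ratios are a description. The ratio of S100a9 to Mpo was between 8.96 and 38.8 in mutants.

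**Figure D3:**
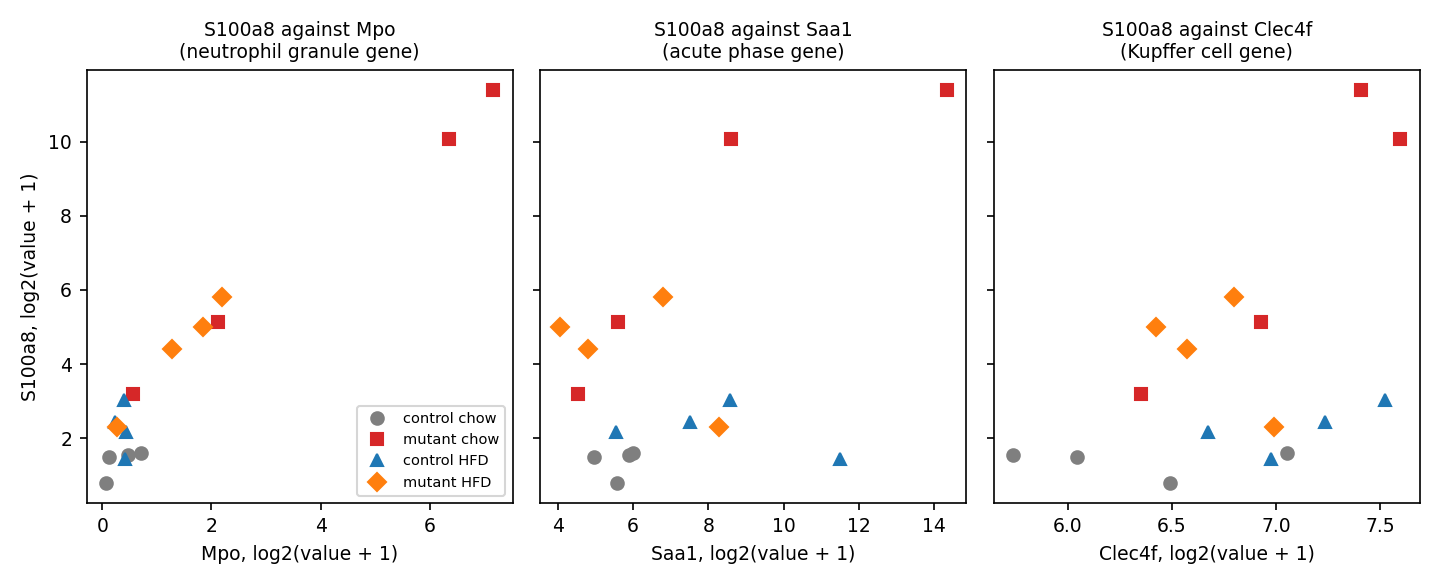
S100a8 against Mpo (neutrophil granule), Saa1 (acute phase) and Clec4f (Kupffer cell) in 16 libraries, both axes as log2(value + 1), 1 point per library and 1 colour and shape per group. S100a8 follows Mpo across mutants of both diets, whereas the library second highest in Saa1, a control on HFD, is the lowest HFD library in S100a8.

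Of 10 defining neutrophil markers 9 had a row (Ly6g had none) and 7 were tested. Their summed value was between 2.61 and 6.10 in chow controls, 6.69 and 1403 in chow mutants, 2.90 and 4.74 in HFD controls, and 2.60 and 35.3 in HFD mutants. None of the 9 was listed at 0 in the 4 chow mutants or in HFD mutants 2 to 4, whereas Elane, Retnlg and Mmp8 were at 0 in Mutant_HFD replicate 1. Among the 8 controls, 7 had at least 1 defining marker at 0, and Control_HFD replicate 1 had 4 (Camp, Ltf, Ngp and Mmp8). Only 1 of the 9 reached a value of 1 in any control, so 6 of the 7 tested markers passed the filter on low values through mutant libraries alone, and the tested markers as a set support no difference. The 9 markers are therefore described without the filter. Their median log2 difference was 3.70 on chow and 1.01 on HFD, against 0.02 over all 15544 genes in each case. All 9 were higher in both Mutant_Chow replicates 1 and 2 than in any other library, as were 7.57% of all genes. By limma 0 of the 7 tested passed the adjusted threshold in either comparison. At an unadjusted p under 0.05 the count was 7 on chow and 0 on HFD, where 6.08% and 8.6% of all tested genes had such a p.

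Every chow mutant lay above every chow control for 4 of the 9, namely Camp, Ltf, Ngp and Retnlg, beside 2.09% of all genes without the filter, and every HFD mutant above every HFD control for 3 of the 9, Camp, Ltf and Ngp, beside 1.63%. On HFD the separation of the lowest mutant was narrow, with Ngp at 0.149 against 0.130 in the highest control. On both diets together 13 tested genes (0.102%) had this pattern, Camp, Ltf and Ngp among them, and S100a8 and S100a9 were not, because of Mutant_HFD replicate 1. In the wider list of 32 neutrophil genes, 20 had a row and 14 were tested. None of the 14 passed limma's adjusted threshold (12 on chow and 0 on HFD at an unadjusted p under 0.05, beside 6.08% and 8.6%). Only 8 of the 20 reached a value of 1 in any control, so some of the 14 passed the filter through mutant libraries alone. These counts therefore support no difference. Over the 20 the median log2 differences without the filter were 2.10 and 0.24. Wfdc21, placed in this list, was between 1837 and 3799 in every library, with 3262 and 3799 in the 2 libraries highest in S100a8 and 3424 in Control_HFD replicate 1, where S100a8 was 1.73.

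**Figure D4:**
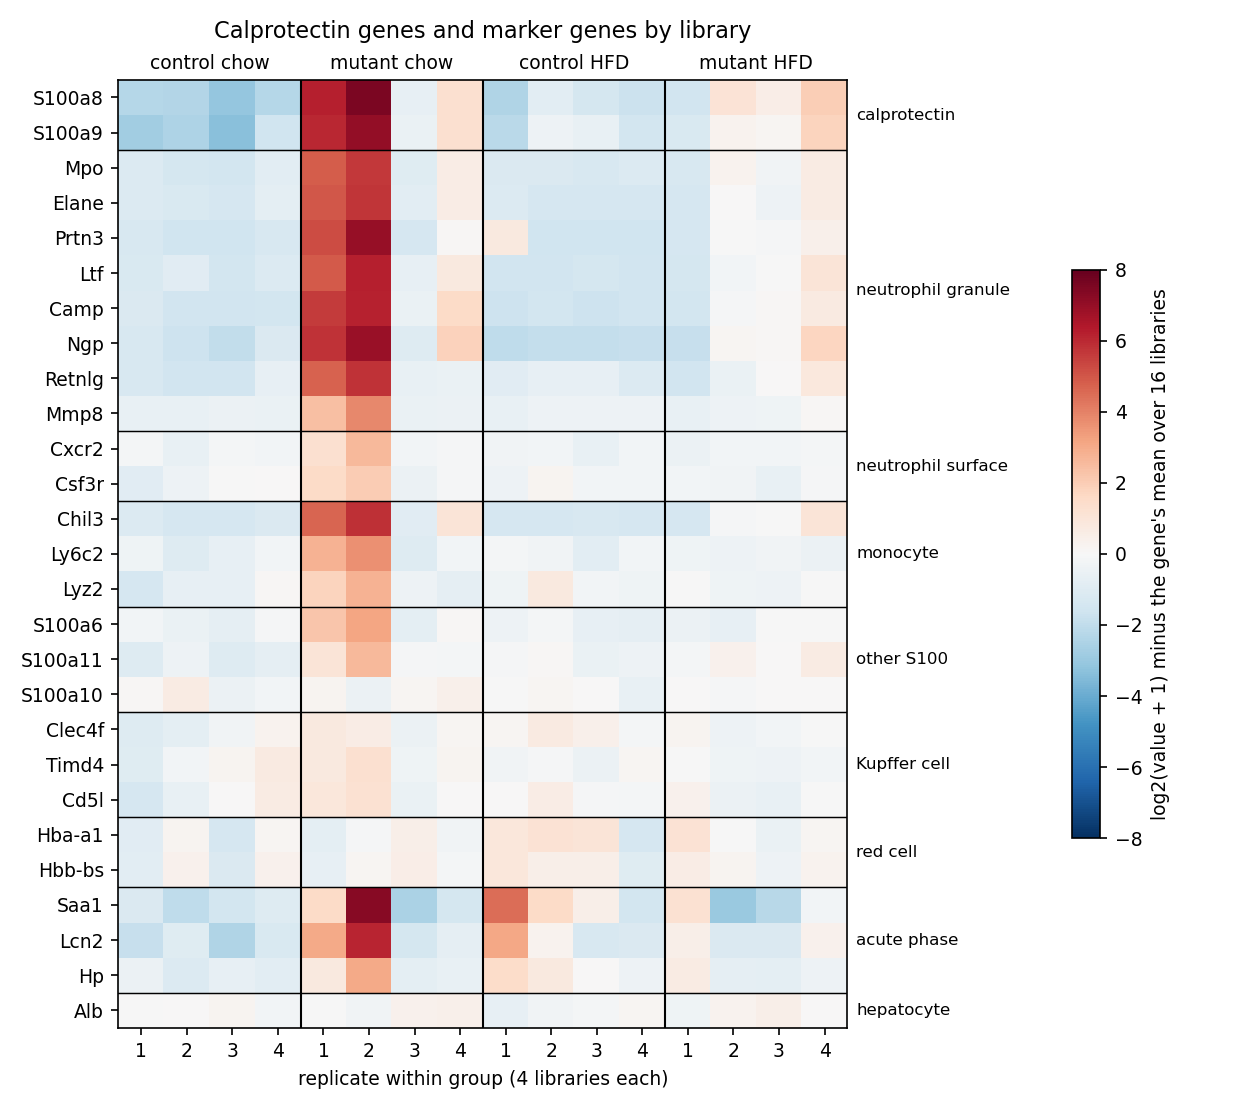
Heat map of S100a8, S100a9 and marker genes in 16 libraries. Colour is log2(value + 1) minus the mean of the gene over all libraries, columns are replicates 1 to 4 of each group, and lines separate marker classes. Mpo, Elane, Ltf, Camp, Ngp and Retnlg largely share the pattern of S100a8 and S100a9 in both chow and HFD mutants. Prtn3 and Mmp8 do so on chow but less on HFD. Prtn3 was 4.22 in Control_HFD replicate 1 and at most 3.02 in HFD mutants. Mmp8 was 0.121 in Mutant_HFD replicate 2, below the 0.152 of Control_HFD replicate 2. Kupffer cell, red cell and hepatocyte genes vary less, and Saa1 and Lcn2 are also high in Control_HFD replicate 1.

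Receptors of mature neutrophils were high in the 2 libraries in which S100a8 was highest. Csf3r, the granulocyte colony-stimulating factor receptor, was 8.23 and 12.2 in Mutant_Chow replicates 1 and 2 and at most 2.78 elsewhere. Cxcr2, a chemokine receptor, was 3.26 and 9.28 there and at most 0.607 elsewhere. In HFD mutants 2 to 4, where S100a8 was between 20.3 and 55.5, Csf3r was 1.68, 1.17 and 1.96, within the range of HFD controls (1.46 to 2.78) or below it. Cxcr2 in these mutants was 0.449, 0.493 and 0.566, within the range of HFD controls (0.155 to 0.485) or above it.

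The part of other cell types in the S100a8 and S100a9 values was not tested, and their markers are given beside them. Of 10 monocyte markers 9 had a row and 8 were tested; Ly6c2 was 47.9 and 92.2 in Mutant_Chow replicates 1 and 2 and between 2.62 and 5.59 elsewhere. HFD mutants 2 to 4 were not higher in Ly6c2 (4.27 to 4.88) than HFD controls (3.07 to 5.59), in contrast to S100a8. Chil3, on the same list, was higher, at 1.44, 1.64 and 4.50 in these mutants and at most 0.0997 in HFD controls. Itgam, also on the list, was 1.73, 0.765 and 1.01 in these mutants and between 0.348 and 0.768 in HFD controls. The median log2 difference of monocyte markers was 1.14 on chow, 0.004 on HFD and 0.02 on chow without the same 2 libraries. Msrb1 made up most of their summed value, at 397 or more in every library. Without Msrb1 the sum ran from 46.3 to 93.5 in chow controls, 61.5 to 802 in chow mutants, 66.2 to 126 in HFD controls and 67.0 to 84.0 in HFD mutants.

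Of 17 Kupffer cell and macrophage markers all had a row and 16 were tested, with median log2 differences of 0.60 on chow and -0.09 on HFD and summed values between 358 and 1331. In 9 of the 17 both Mutant_Chow replicates 1 and 2 were higher than any other library, beside 7.57% of all genes. Cd5l was 167 and 216 in these libraries and at most 144 elsewhere. Clec4f was 192 and 169 there, against 183 in Control_HFD replicate 2, where S100a8 was 7.12. The 12 phagocyte oxidase and shared leukocyte genes had medians of 0.84 and -0.08 and summed values between 105 and 674. For 9 tested of 11 lymphocyte markers the medians were 0.22 and 0.07 (summed values 11.8 to 65.4), for 5 tested of 8 red cell markers 0.29 and -0.03 (1623 to 6922), and for 9 tested of 10 hepatocyte markers -0.04 and -0.13. Haemoglobin beta (Hbb-bs) was 841 and 1424 in the 2 libraries highest in S100a8, inside the range of 574 to 2449 over all libraries. By limma 0 genes of these lists and of the monocyte list passed the adjusted threshold. At an unadjusted p under 0.05 the counts on chow were 5 monocyte, 3 Kupffer cell, 4 phagocyte, 1 lymphocyte, 0 red cell and 0 hepatocyte genes, and on HFD 1, 0, 0, 1, 0 and 1, beside 6.08% and 8.6% of all genes.

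Of 15 other S100 genes 8 had a row and all 8 were tested. S100a11, which lies apart from the calprotectin genes on chromosome 3, was 10.4, 16.3, 10.4 and 13.2 in chow controls and 46.9, 138, 20.7 and 20.04 in chow mutants. It was the only 1 of the 8 with every chow mutant above every chow control, beside 1.95% of all tested genes. S100a6 was 26.6 and 53.3 in Mutant_Chow replicates 1 and 2 and between 2.43 and 5.38 elsewhere, and S100a4 was 6.06 and 12.6 there and at most 2.29 elsewhere. S100a1 (99.4 to 208), S100a10 (140 to 331), S100a13 (3.91 to 21.8) and S100a16 (25.1 to 50.1) did not have their highest values in these libraries, and S100g was listed at 0 in both. By limma 0 of 8 passed the adjusted threshold on either diet (2 on chow and 0 on HFD at an unadjusted p under 0.05, beside 6.08% and 8.6%), and the median log2 differences were 0.13 and -0.18.

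Among receptors and signalling genes 15 of 16 had a row and were tested, and Ager, the receptor for advanced glycation end products, had none. Tlr4, the signalling receptor for calprotectin, was low throughout, between 0.695 and 3.68. Its partner Ly96 was between 4.01 and 11.7. The co-receptor Cd14 was 11.8 and 90.5 in Mutant_Chow replicates 1 and 2 and between 2.79 and 7.93 elsewhere, and in HFD mutants 2 to 4 it was between 4.07 and 6.41. Basigin (Bsg), another reported S100a9 receptor, was high in all libraries, between 377 and 664. None of the 15 passed limma's adjusted threshold (2 on chow and 0 on HFD at an unadjusted p under 0.05, beside 6.08% and 8.6%), and the median log2 differences were 0.21 and 0.08.

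Of 16 regulators linked to S100a8 and S100a9 14 had a row. PU.1 (Spi1), a myeloid transcription factor, was 24.8 and 36.6 in Mutant_Chow replicates 1 and 2 and between 3.66 and 13.9 elsewhere. Cebpd was 5.01 and 8.21 there and at most 4.09 elsewhere. Cebpb was 173 and 132 there, below the 196 of Control_HFD replicate 3. Stat3 was 87.7 and 118 there and at most 66.7 elsewhere, and its target Socs3 was 12.7 and 29.1, against 16.9 in Control_HFD replicate 1. By limma 0 of 14 passed the adjusted threshold on either diet (2 on each diet at an unadjusted p under 0.05, beside 6.08% and 8.6%), with median log2 differences of 0.49 and -0.14.

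On HFD the acute-phase genes Saa1 and Lcn2 were highest in Control_HFD replicate 1, the HFD library lowest in S100a8 and S100a9. Serum amyloid A (Saa1) was 385 and 20634 in Mutant_Chow replicates 1 and 2, in which S100a8 was 1079 and 2693, and 2886 in Control_HFD replicate 1, in which S100a8 was 1.73. In that control Lcn2, an iron-siderophore binding protein made by both liver and neutrophils, was 598, close to the 580 of Mutant_Chow replicate 1. HFD mutants 2 to 4, at 30.8, 20.3 and 55.5 for S100a8, had Saa1 at 15.6, 27.1 and 111, below or within the range of HFD controls (46.0 to 2886). Lcn2 was 29.8, 30.1 and 87.6 in these mutants, within the range of HFD controls (28.3 to 598). Other acute-phase genes did have HFD mutants 2 to 4 above every HFD control and mutant 1 not, as S100a8 did. Ceruloplasmin (Cp) was 980, 1099 and 934 in mutants 2 to 4 and 506 in mutant 1, against 398 to 667 in HFD controls, and Crp (296, 343 and 326.4, against at most 276) and Serpina3m (171, 153 and 168, against at most 134) had the same pattern. The share of all genes with this pattern was not counted, and mutant 1 is in a different number series from mutants 2 to 4. Without Mutant_HFD replicate 1, 2545 of 12662 genes had an unadjusted limma p under 0.05 on HFD. With it, 1092 of 12704 did. Over the 8 HFD libraries the correlation with the calprotectin genes was -0.61 for Saa1 and 0.92 for Mpo. Mpo was among the genes most like S100a8 and S100a9 over 16 libraries that include these 8. Saa1 was chosen after its values were seen. These correlations therefore describe single genes and do not compare classes of genes. All 26 listed genes were tested, with median log2 differences of 0.79 on chow and -0.21 on HFD, and 0 passed limma's adjusted threshold (11 on chow and 2 on HFD at an unadjusted p under 0.05, beside 6.08% and 8.6% of all genes).

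Genes of neutrophil recruitment were mostly low, and 12 of 20 had a row. Cxcl1, a neutrophil chemoattractant, was 57.7 and 229 in Mutant_Chow replicates 1 and 2 and at most 30.0 elsewhere, the latter in Control_HFD replicate 1. It was 5.83, 5.31 and 9.72 in HFD mutants 2 to 4, within the range of 4.80 to 30.0 of HFD controls. Cxcl5, which did not pass the filter on low values, was 0.228 to 0.537 in HFD mutants and 0 to 0.214 in HFD controls. It was the only 1 of the 12 with every HFD mutant above every HFD control, beside 1.63% of all genes without the filter. Of the 9 tested genes 0 passed limma's adjusted threshold or an unadjusted p under 0.05 on either diet (6.08% and 8.6% of all genes did the latter), and the median log2 differences were 0.51 and -0.01.

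Of 13 genes of zinc, manganese and iron handling, the metals that calprotectin or lactoferrin bind, 12 were tested. Metallothionein 2 (Mt2) was 19.5, 31.7, 23.7 and 56.9 in chow controls and 734, 5541, 174 and 207 in chow mutants. It was among 3 of the 12 genes with every chow mutant above every chow control, beside 1.95% of all tested genes. On HFD it was between 32.5 and 43.1 in controls and 35.8, 32.9, 276 and 338.1 in mutants, so that replicates 1 and 2 lay with the controls, where only replicate 1 did for S100a8. Mt1 was 1140 and 8912 in Mutant_Chow replicates 1 and 2 and 209.8, 870.2 and 1013 in HFD mutants 2 to 4. By limma 0 of 12 passed the adjusted threshold (6 on chow and 0 on HFD at an unadjusted p under 0.05, beside 6.08% and 8.6%), and the median log2 differences were 0.34 and 0.07.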

How the data were processed

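The authors purified liver RNA, had NEBNext Ultra II libraries sequenced, and assigned reads to the mouse transcriptome (mm10) with kallisto in gene mode. They tested for differential expression with sleuth's likelihood-ratio test at a q-value under 0.05. Versions, annotation release and filters are not given in the sources used here. The deposited values are a signal per gene, read from their totals as TPM adjusted by size factors. Depth is unknown, so no counting interval is given. Each of 15544 rows is above 0 in at least 5 libraries.

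A gene was tested where at least 4 libraries reached 1 (12704 genes). limma 3.58.1 in R 4.3.3 was fitted to log2(value + 1) over 4 group means with a variance trend and no covariate, with Benjamini-Hochberg adjustment over all genes and a threshold of 0.05. This scale understates changes of low genes. A count model had been foreseen and was not applicable. Fits were tested on simulated data. The HFD values of both genes were also compared by exact permutation tests. Replicates were numbered in sample order and pair nothing.

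The members and gene lists were chosen with earlier results of these data known. Genes eligible to be named were both genes and the 10 most alike over 16 libraries and in deviations from group means. Also eligible were the 4 tested genes of highest median in each list, defining neutrophil markers and other S100 genes. Tlr4, Ly96, Cd14, Ager, Cebpb, Cebpd, Stat3 and Socs3 were eligible too. Not every eligible gene is given by value, and those left out include Hpx, C3, Fga, Fgg, Cebpa, Lbp, Hamp, Ftl1 and Fth1. Atp6v0a1, Cp, Crp, Cxcl5, Itgam, Lcn2, Mt2, Ppbp, Prtn3, Rrm2, Saa1, Serpina3m, Spi1 and Tk1 were chosen after their values were seen. Alternatives were a pseudocount of 0.1, median-of-ratios size factors, scaling to a total of 1000000, no filter or a filter at 5, only the groups compared, library weights, number series as a term, and leaving out each library. Leaving out Mutant_Chow replicates 1 and 2, describing lists without the filter, and summing lists without their largest gene were chosen after seeing the data.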

Additional observations from a re-analysis of the deposited data

Results flagged for a closer look

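S100a8 in Control_Chow replicate 3, at 0.726 against 1.82 to 2.05 in the other 3 controls on chow, lay far below its group on log2(value + 1): the gap to the nearest library was 0.863 of the range of the group, above Dixon's critical value for 4 samples. Chance flags about 1 in 20 groups, and 16 were tested. S100a9 was also lowest in that library, at 1.04.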

How the results depend on the processing

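The genotype difference on HFD kept its direction and stayed short of the threshold under all 16 alternatives for both genes, at 1.46 to 2.80 for S100a8 (limma adjusted p 0.0772 to 0.9996) and 0.89 to 1.88 for S100a9 (0.263 to 0.9996), each as log2. Leaving out each library in turn gave 1.63 to 2.80 and 0.89 to 1.88. Library weights gave the smallest adjusted p-values. On chow, leaving out 1 library gave 4.77 to 7.505 for S100a8 and 4.79 to 7.32 for S100a9, and leaving out Mutant_Chow replicates 1 and 2, chosen after seeing the data, gave 2.81 and 2.91. The same step turned the S100a8 diet difference in mutants from -3.07 to 0.21 and moved that of S100a9 to -0.14. The number of genes past the threshold on HFD was 2 as reported, 1 with only the HFD libraries, 3926 with library weights, and 2 to 141 when 1 library was left out (141 without Mutant_HFD replicate 1, 4 without Control_HFD replicate 3, 5 without Control_HFD replicate 4). The cause was not tested. Genes with every mutant above every control on chow numbered 248 as reported, 116 after scaling to equal totals and 878 without Mutant_Chow replicates 1 and 2, and on HFD 176 as reported and 109 with the filter at 5. Scaling to equal totals moved the median log2 difference of all genes by -0.15 for diet in controls and 0.14 for the interaction of genotype and diet. No paired analysis was possible because the labels give no replicate numbers. With depth unknown, values near 0 carry no detection limit.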

Other observations

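Genes of dividing cells and of platelets, listed after their values were seen, are given by their values. Rrm2, a ribonucleotide reductase subunit, was 4.96, 6.44, 2.46 and 2.69 in mutants on chow, against 0.754 to 1.62 in controls on chow. On HFD it was 2.42, 2.20 and 2.52 in mutants 2 to 4 and 0.874 in mutant 1, against 0.733 to 0.923 in controls, the same 3 HFD mutants that were above the controls in S100a8. How many of all genes share this HFD pattern was not counted. Ppbp, a platelet chemokine, was 5.35, 5.41, 1.35 and 4.82 in mutants on chow and 0.151 to 1.61 in controls on chow. Of the 12 proliferation genes, Tk1 made up most of the summed value. Without it, the sum was 42.1, 65.0, 18.2 and 16.6 in chow mutants and 13.8 to 19.0 in chow controls, and on HFD 32.4, 23.7 and 35.0 in mutants 2 to 4 and 14.9 in mutant 1, against 13.5 to 20.7 in controls. Summed over the 3 platelet genes with a row, mutants on chow lay between 11.7 and 16.4 and controls on chow between 5.28 and 9.42, while on HFD mutants (6.09 to 10.9) and controls (8.11 to 12.2) overlapped. Every chow mutant lay above every chow control for 2 of 11 tested proliferation and 1 of 3 platelet genes, beside 1.95% of all tested genes. On HFD the counts were 2 and 0, beside 1.39%. In 1 platelet gene every HFD mutant lay below every HFD control, beside 1.31%. By limma 0 passed the adjusted threshold on either diet. Both lists followed the values, so these counts support no difference.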
